A study of Drosophila melanogaster with 12 samples.

Results

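The circadian clock genes Clk, cyc, tim, per, vri, Pdp1, cwo and cry and the neuropeptide gene Pdf were followed through 12 RNA-seq libraries of cells sorted from Drosophila larval brains. These 9 genes were chosen by their FlyBase symbols, with earlier results of the same libraries known, and all 9 were found among the 12610 genes of the table. The choice was therefore not independent of the values below, so the levels and differences of the 9 genes are given as descriptions, without p-values. All 9 also passed the filter on low values, which left 9912 genes. The filter asks for a value of at least 1 in at least 3 libraries, and Pdf passed it without its WT GFP-positive libraries, all of which lie below 1.

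Brains were taken early in larval instar 3, dissociated and sorted by FACS on GFP, which marks the cells that express the transcription factor gene Rfx. Brains were wild-type (WT) or carried an rfx knock-out (KO), and both genotypes gave a GFP-positive and a GFP-negative fraction, so that 4 groups of 3 libraries could be compared. The labels name neither the driver of the GFP, the rfx allele, nor the hour at which brains were dissected, and they do not say that replicates came from separate animals, so the spread between libraries may be technical. Rfx itself stood at 2793 ± 217 (SD, n = 3) in WT GFP-positive cells and at 73.7 ± 0.358 in WT GFP-negative cells. In the knock-out it stood at 1126 ± 170 in GFP-positive cells and at 53.05 ± 1.30 in GFP-negative cells, so reads of Rfx were reduced in the KO GFP-positive libraries but not lost.

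In flies the clock is a transcriptional loop. The proteins CLK and CYC form a dimer that binds E-box elements and switches on per, tim, vri, Pdp1 and cwo; PER and TIM return to the nucleus and block the dimer, VRI represses Clk and PDP1 activates it. CRY is the blue-light receptor that leads to the loss of TIM at dawn, and PDF is the peptide by which ventral lateral neurons signal to other clock neurons. In the larval brain the loop runs in small groups of lateral and dorsal neurons, some of the genes are also expressed in glia, and the RNA of most of them rises and falls over the day.

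Values below are normalised read counts as deposited, in the order of replicates 1, 2 and 3, unless a level per kilobase is named. Log2 differences are on the log2(value + 1) scale with their standard error (SE), from 1 limma fit of all 12 libraries. A gene is called where its adjusted p in that fit, over all 9912 genes, is under 0.05. Libraries held between 20301256 and 29771321 reads. The share of rRNA reads was 12.2% in WT GFP-positive replicate 2, 2.54% in replicate 3 of the KO GFP-positive group and 0.289% to 0.976% elsewhere, and results that depend on these libraries are given with and without them. In bulk RNA a lower level can mean fewer expressing cells or less RNA in each cell, and these cannot be told apart here.

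All 12 libraries are labelled as neurons. The 11 neuroblast and cell cycle markers, among them wor, ase and dpn, were detected in both fractions but summed to 63.2 to 70.0 in the WT GFP-positive libraries against 1722 to 2114 in the WT GFP-negative libraries, and to 64.6 to 94.1 against 1986 to 2304 in the knock-out. The summed level of 9 markers of mature neurons was 9348 to 11360 in WT GFP-positive and 4932 to 5640 in WT GFP-negative libraries, and 8977 to 11760 against 4644 to 5653 in the knock-out. The 17 glial markers summed to 920 to 1214 and 995 to 1252 in the WT fractions and to 897 to 1226 and 1254 to 1352 in the KO fractions. Of these 17, 5 were called as higher in WT GFP-positive cells (Eaat2, Gs2, Mdr65, Gat and Tret1-1) and 5 as lower (Eaat1, gcm, loco, nrv2 and wrapper), with Eaat1 at -3.82 ± 0.20 and Eaat2 at 1.52 ± 0.16 on the log2 scale. The sums of 10 photoreceptor and eye disc genes follow in the order WT positive, WT negative, KO positive and KO negative. They were 1452 to 1479, 648 to 705, 1607 to 1721 and 671 to 700. They came largely from eya, so, toy and dac, and in the GFP-negative groups also from ey. Between the WT fractions eya, so, toy and gl were called as higher in GFP-positive cells and ey as lower. The rhodopsin gene ninaE had a mean under 1 in each group. The 8 hemocyte and fat body markers summed to 71.2 to 200, 16.4 to 46.35, 68.8 to 225 and 34.6 to 62.3, mostly from the collagen genes Col4a1 and vkg, and the 8 prothoracic gland markers to 111 to 145, 94.4 to 107, 122 to 138 and 87.8 to 110, mostly from Npc1a. Every comparison of the fractions below was thus made between a fraction rich in mature-neuron RNA and one that also held neuroblast RNA, and the part of this in the clock genes' differences was not tested.

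The genes of the activating dimer differed from each other, since Clk was far lower in the knock-out and cyc was not. Clk, the bHLH-PAS activator, lies on the minus strand of chromosome 3L (chr3L:7763233-7775603, BDGP6). It read 27.97, 27.55 and 23.4 in the WT GFP-positive libraries and 4.97, 2.05 and 3.54 in the WT GFP-negative libraries. In the knock-out it read 7.04, 5.92 and 8.81 in GFP-positive and 1.48, 0.852 and 1.44 in GFP-negative cells. None of the 4 groups overlapped any other, and Clk descended in the order WT GFP-positive, KO GFP-positive, WT GFP-negative, KO GFP-negative. Behind the lowest value stood 24 reads, so counting error there was not small.

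The mean of Clk was 7.48-fold higher in WT GFP-positive than in WT GFP-negative cells, a log2 difference of 2.65 ± 0.24 (SE). In the knock-out the same gap was 5.77-fold, or 1.87 ± 0.24. Across genotypes Clk was 3.63-fold lower in KO than in WT GFP-positive cells, at -1.74 ± 0.24, and 2.80-fold lower in KO than in WT GFP-negative cells, at -0.96 ± 0.24. The GFP-positive difference was called in the main fit and under all 23 alternatives. The GFP-negative one was not called in the main fit but was with DESeq2, with sequencing lane as a covariate, with the run of title numbers as a block, and without WT GFP-negative replicate 2. The difference between the 2 knock-out effects, -0.78 ± 0.34, was not called, so a larger relative drop in 1 fraction was not shown.

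The partner of Clk, cyc, moved differently. It lies on the minus strand of chromosome 3L (chr3L:19813770-19815938) and encodes the second protein of the dimer. It read 167, 148 and 164 in WT GFP-positive and 82.2, 92.8 and 95.5 in WT GFP-negative libraries. In the knock-out it read 192.5, 160.5 and 169 in GFP-positive and 122, 107 and 118.5 in GFP-negative cells. The fractions were apart in both genotypes, at 1.77-fold (0.82 ± 0.10) in the wild type and 1.51-fold (0.58 ± 0.10) in the knock-out, while WT and KO GFP-positive cells overlapped. In GFP-negative cells the knock-out libraries all lay above the wild-type ones, by 1.28-fold (0.36 ± 0.10), a difference that was not called.

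**Figure D1:**
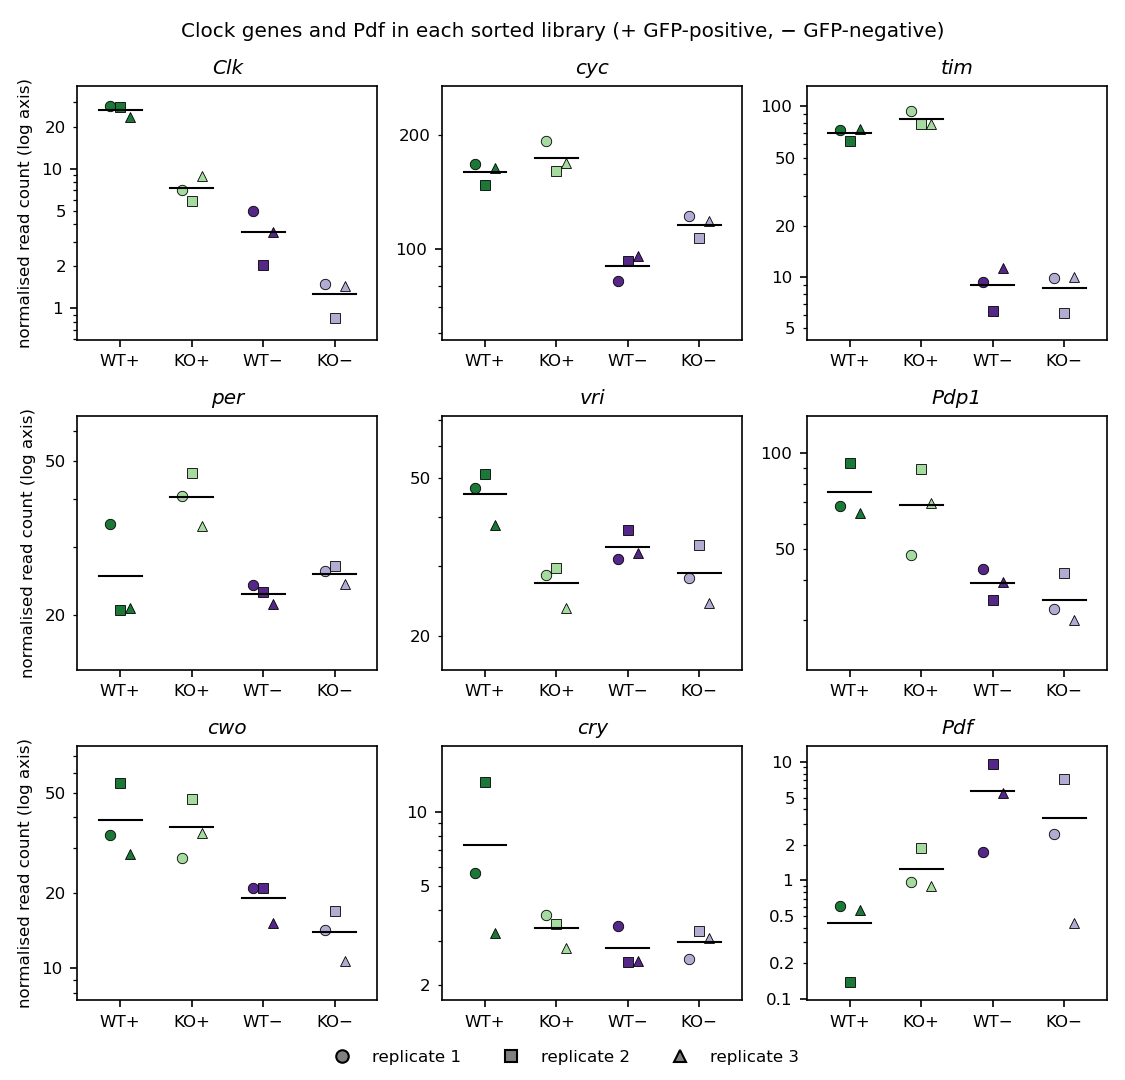
Normalised read count (log axis) of each of the 9 genes in each library, by genotype (WT, KO) and sorted fraction (+ GFP-positive, − GFP-negative). Symbols mark replicates 1 to 3 and bars the group means. Clk falls into 4 separate levels, tim into 2 levels set by the fraction, and the group mean of Pdf is lowest in WT GFP-positive cells.

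Of the repressor pair, tim followed the fraction. It lies on the minus strand of chromosome 2L (chr2L:3493986-3508119) and encodes the light-sensitive partner of PER. It read 72.4, 62.85 and 74.1 in WT GFP-positive and 9.42, 6.31 and 11.25 in WT GFP-negative libraries. It read 94.2, 78.55 and 79.25 in KO GFP-positive and 9.88, 6.14 and 9.98 in KO GFP-negative libraries. The GFP-positive level was 7.76-fold higher in the wild type (2.85 ± 0.21) and 9.69-fold higher in the knock-out (3.16 ± 0.21). Among the 9912 genes its difference ranked 32 from the top in the wild type and 12 from the top in the knock-out.

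Whereas Clk fell in the knock-out GFP-positive cells, tim did not. Each of the 3 KO GFP-positive libraries lay above each WT one, by 1.20-fold in the mean (0.26 ± 0.21), and the difference was not called. In GFP-negative cells the genotypes overlapped (-0.04 ± 0.21). Exons of tim share 7.74% of their bases with a long non-coding RNA on the opposite strand and 2.15% with a snoRNA on the same strand, and these libraries do not keep the strand.

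The gene of its partner, per, lies on the plus strand of the X (chrX:2685580-2692780). It read 34.4, 20.6 and 20.8 in WT GFP-positive and 23.9, 23.0 and 21.4 in WT GFP-negative libraries. The 2 WT fractions overlapped, at 25.3 ± 7.91 against 22.75 ± 1.29 (SD, n = 3), and the log2 difference of 0.11 ± 0.18 turned to -0.18 when libraries were rescaled to 1 common total. In the knock-out it read 40.75, 46.8 and 34.1 in GFP-positive and 26.0, 26.8 and 24.15 in GFP-negative cells, which did not overlap (1.58-fold, 0.63 ± 0.18).

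In KO against WT GFP-positive cells, per was 1.60-fold higher (0.69 ± 0.18). The overlap lay between WT GFP-positive replicate 1 (34.4) and KO GFP-positive replicate 3 (34.1). This difference was not called in the main fit. It was called without WT GFP-positive replicate 1, with DESeq2 and with the run of title numbers as a block. The call between the KO fractions was lost with rescaled libraries, without title numbers 1 to 4, without KO GFP-positive replicate 2 and without KO GFP-negative replicate 3. On the opposite strand dyw shares 1.08% of the exonic bases of per and never exceeded 2.69.

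The next 3 genes, vri, Pdp1 and cwo, are targets of the dimer that feed back on it. vri, on the plus strand of chromosome 2L (chr2L:5288944-5311223), encodes the bZIP repressor of Clk. It read 47.25, 51.05 and 38.0 in WT GFP-positive and 28.5, 29.6 and 23.5 in KO GFP-positive libraries. The 2 groups did not overlap, and the mean was 1.67-fold lower in the knock-out (-0.71 ± 0.15).

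In GFP-negative cells vri read 31.4, 36.9 and 32.3 in the wild type and 28.1, 33.95 and 24.3 in the knock-out, which overlapped (-0.22 ± 0.15). The fractions were 1.36-fold apart in the wild type (0.42 ± 0.15) and overlapped in the knock-out (-0.07 ± 0.15). The call between the WT fractions was lost under 15 of the 23 alternatives. The call between the genotypes in GFP-positive cells was lost under 6 of 23, all of them fits with fewer libraries: without title numbers 1 to 4, without the 2 libraries richest in rRNA reads, or without WT GFP-positive replicate 1 or 2 or KO GFP-positive replicate 1 or 3.

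Pdp1, on the minus strand of chromosome 3L (chr3L:7811458-7867369), encodes the bZIP activator of Clk. It read 68.0, 92.95 and 64.9 in WT GFP-positive and 43.3, 34.8 and 39.5 in WT GFP-negative libraries. It read 48.0, 89.3 and 69.5 in KO GFP-positive and 32.5, 42.05 and 30.04 in KO GFP-negative libraries. The fractions did not overlap in either genotype, with 1.92-fold in the wild type (0.91 ± 0.21) and 1.98-fold in the knock-out (0.93 ± 0.21), and the genotypes overlapped in both fractions. In GFP-positive cells the means were 75.3 ± 15.4 (SD, n = 3) in the wild type and 68.9 ± 20.7 in the knock-out (-0.15 ± 0.21), with a wide spread.

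cwo, on the plus strand of chromosome 3R (chr3R:10388258-10400752), encodes the bHLH-Orange repressor that competes at E-boxes. It read 33.8, 54.5 and 28.4 in WT GFP-positive and 20.95, 20.9 and 15.1 in WT GFP-negative libraries. It read 27.5, 47.4 and 34.55 in KO GFP-positive and 14.3, 16.9 and 10.7 in KO GFP-negative libraries. The pattern was that of Pdp1: the fractions stood apart by 2.05-fold in the wild type (0.96 ± 0.26) and 2.61-fold in the knock-out (1.31 ± 0.26), and the genotypes overlapped. The call in the wild type was lost without WT GFP-positive replicate 2, where cwo was highest, without WT GFP-negative replicate 3, and without the 2 rRNA-rich libraries.

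The photoreceptor gene cry was low, and the size of its differences depended most on 1 library. It lies on the plus strand of chromosome 3R (chr3R:19212154-19215442). It read 5.67, 13.2 and 3.23 in WT GFP-positive libraries, from 158, 284 and 87 reads. The other 9 libraries lay between 2.475 and 3.82, namely 3.46, 2.475 and 2.48 in WT GFP-negative, 3.82, 3.53 and 2.82 in KO GFP-positive, and 2.53, 3.30 and 3.096 in KO GFP-negative cells. Thus the lowest WT GFP-positive library was within the range of the other groups and only replicates 1 and 2 were above it.

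The mean of cry was 2.63-fold higher in WT GFP-positive than in WT GFP-negative cells (0.96 ± 0.34), and 1.59-fold without WT GFP-positive replicate 2, the library richest in rRNA reads. Its mean in KO GFP-positive cells was 0.46 of that in WT GFP-positive cells, and 0.761 of it without that library. The call between the WT fractions was lost under 9 of the 23 alternatives. Among them were the removal of WT GFP-positive replicate 2 and of other single libraries, such as WT GFP-positive replicate 1 or WT GFP-negative replicate 3. A long non-coding RNA on the same strand shares 17.4% of the exonic bases of cry, so part of its reads may belong there.

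Pdf went the other way from the clock genes. It is a short gene on the minus strand of chromosome 3R (chr3R:26455462-26456141). It read 0.610, 0.139 and 0.557 in WT GFP-positive libraries, from 17, 3 and 15 reads, and 1.75, 9.69 and 5.49 in WT GFP-negative libraries, from 44, 227 and 146 reads. It read 0.973, 1.88 and 0.901 in KO GFP-positive and 2.47, 7.17 and 0.436 in KO GFP-negative libraries. The WT fractions did not overlap, whereas the KO fractions did, because KO GFP-negative replicate 3, with 10 reads, fell below all 3 KO GFP-positive libraries.

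The mean of Pdf was 12.95-fold lower in WT GFP-positive than in WT GFP-negative cells, and 8.31-fold lower without WT GFP-negative replicate 2. On the log2(value + 1) scale, which shrinks the change of so low a gene, the difference was -2.02 ± 0.56. Its call was lost without that library and without the 2 rRNA-rich libraries. Each KO GFP-positive library lay above each WT one, by 2.87-fold in the mean (0.64 ± 0.56), and this was not called. In GFP-negative cells the mean was 1.68-fold lower in the knock-out, but 1 library decided its size: it was 3.88-fold lower without KO GFP-negative replicate 2 and 1.08-fold lower without WT GFP-negative replicate 2.

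**Figure D2:**
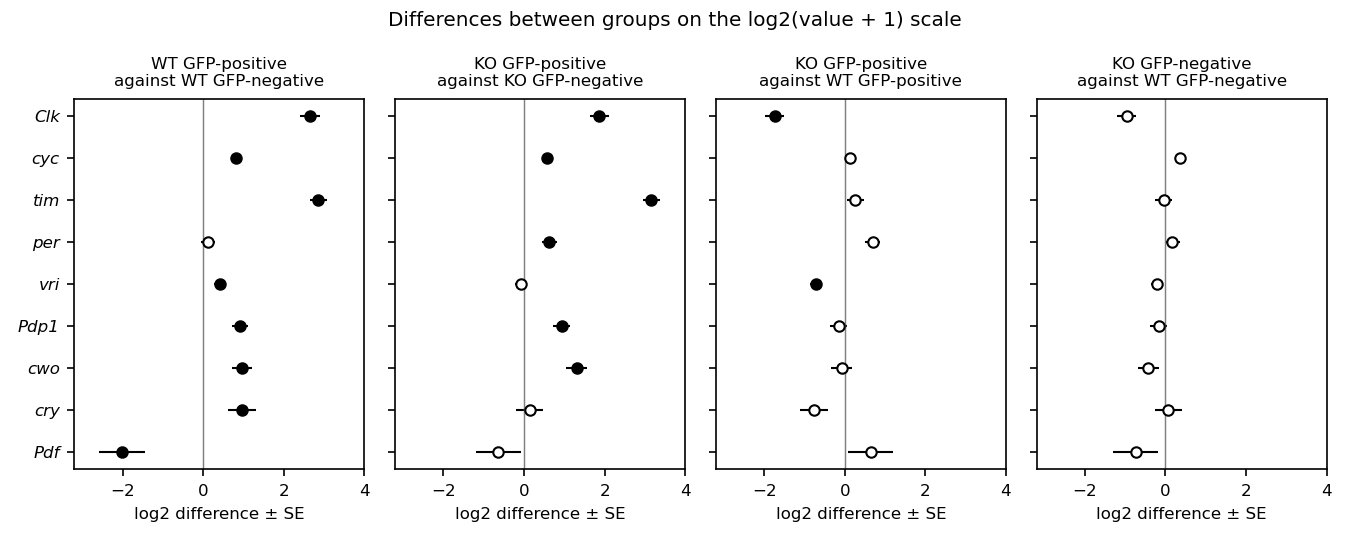
Log2 difference with its SE for each gene in 4 comparisons of 3 libraries with 3, on the log2(value + 1) scale. Filled points were called in the fit over all genes. In the panels that compare fractions most clock genes lie right of 0 and Pdf left; between the genotypes Clk and vri are the filled points, both in GFP-positive cells.

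Set against all genes, 7 of the 9 were called as higher in WT GFP-positive than in WT GFP-negative cells (tim, Clk, cyc, Pdp1, cwo, cry and vri) and 1 as lower (Pdf), where 25.7% of the 9912 genes were called as higher and 12.3% as lower. In the knock-out 6 were called as higher (tim, Clk, cyc, cwo, Pdp1 and per) and 0 as lower, where 23.6% and 12.9% of all genes were. The medians of the 9 log2 differences were 0.91 and 0.63, against 0.09 and 0.07 over all genes. Since the genes were chosen with these contrasts in view, nothing is read from these shares. With libraries rescaled to 1 common total the median of all genes moved to -0.18 and -0.13, the share of calls that were higher fell from 67.7% to 33.4% in the wild type and from 64.8% to 39.8% in the knock-out, and 5 and 4 clock genes were called as higher.

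Between the genotypes, 0 of the 9 genes were called as higher and 2 (Clk and vri) as lower in KO GFP-positive cells, where 1.75% and 1.32% of all genes were called. At an unadjusted p under 0.05 there were 4, and edgeR called 2 and DESeq2 3. With the run of title numbers as a block 3 were called, per as higher and Clk and vri as lower, and over all genes 475 in place of 304. In GFP-negative cells 0 of the 9 were called by limma in either direction, where 0.434% of all genes were called as higher and 0.252% as lower. There 2 passed at an unadjusted p under 0.05, and edgeR called 0 and DESeq2 1, while the block called Clk. For the difference between the knock-out effects in the 2 fractions 0 of the 9 were called by limma, where 0.282% and 0.272% of all genes were; 2 passed at an unadjusted p under 0.05, and edgeR and DESeq2 each called 0. The median difference of the 9 genes was -0.07 between the GFP-positive groups and -0.17 between the GFP-negative groups, against 0.01 and 0.04 over all genes. These comparisons share libraries with those of the fractions, so the 4 sets of values are not independent of each other.

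Levels of different genes were compared only as normalised reads per kilobase of exon. On this scale cyc was highest of the 9 in all 4 groups, at 98.3 ± 6.42, 55.5 ± 4.31, 107 ± 10.2 and 71.2 ± 4.90 (SD, n = 3) in the positive and negative WT fractions and then the positive and negative KO fractions, and did not overlap the next gene in any. In WT GFP-positive cells tim was next at 9.91 ± 0.862, followed by vri, cwo, Pdp1, Clk, per and cry, each of which overlapped its neighbour in the order, and Pdf came last at 0.641 ± 0.379, apart from cry. The dimer's subunit genes were thus unequal in RNA, with Clk at 5.83 ± 0.554.

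The order was not the same in the other groups. Clk was last in the other 3 groups, at 0.779 ± 0.323 per kilobase in WT GFP-negative, 1.61 ± 0.324 in KO GFP-positive and 0.279 ± 0.0779 in KO GFP-negative cells. It overlapped its neighbour tim in WT GFP-negative cells and its neighbour cry in KO GFP-positive cells, and was apart from tim in KO GFP-negative cells. tim was second in both GFP-positive groups and eighth in both GFP-negative groups, at 1.28 ± 0.355 and 1.23 ± 0.311. Pdf was second in WT GFP-negative cells at 8.30 ± 5.84, a spread that overlapped vri. per stood in place 7 in WT GFP-positive cells, in place 4 in WT GFP-negative cells and in place 3 in both KO groups. In both KO groups per overlapped the next gene in the order.

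**Figure D3:**
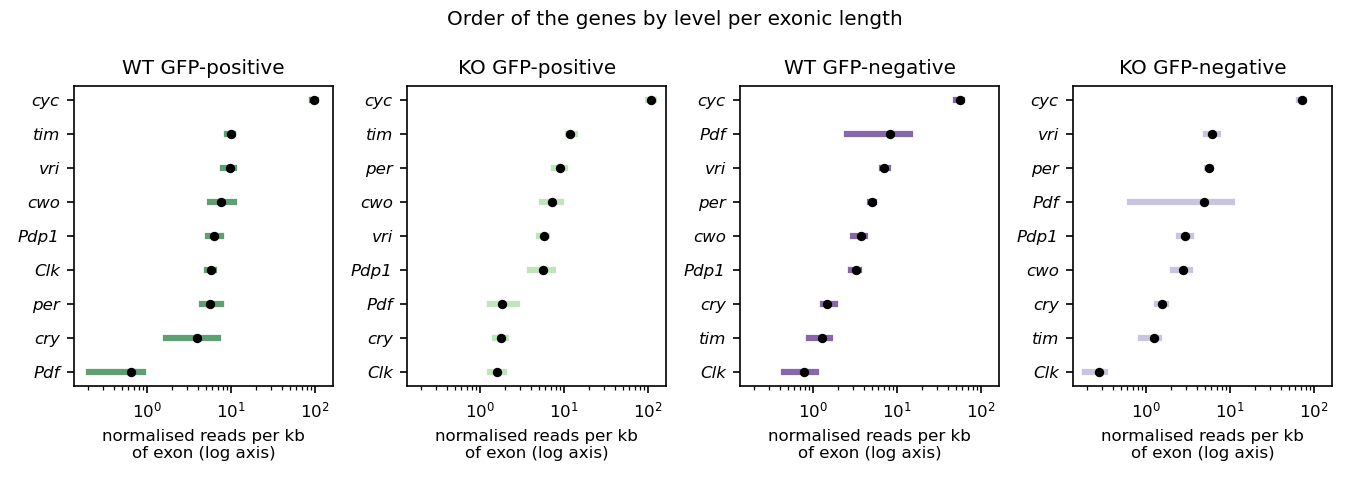
Level of each gene in normalised reads per kilobase of exon (log axis), ordered within each group. Points are means of 3 libraries and bars run from the lowest to the highest library. cyc leads every group, and Clk drops from the middle of the order in WT GFP-positive cells to the end in the other groups.

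Single libraries also differed in ways that the groups do not explain. Replicate 2 of each group carries title numbers 1 to 4. It was the highest of its group for Pdp1 and cwo in both GFP-positive groups and in KO GFP-negative cells, with log2 deviations from the group mean of 0.32, 0.41 and 0.28 for Pdp1 and of 0.53, 0.40 and 0.28 for cwo. cyc was lowest of its group in the same 3 libraries, at -0.11 in each. In all 4 groups replicate 2 was the highest library for vri and the lowest for tim. In the order WT positive, KO positive, WT negative and KO negative, vri deviated by 0.18, 0.12, 0.14 and 0.24. The deviations of tim were -0.15, -0.09, -0.42 and -0.41 in that order. After the group means were taken out, the correlation over the 12 libraries was 0.83 between Pdp1 and cwo, -0.89 between cyc and Pdp1 and -0.79 between cyc and cwo, which describes these libraries only.

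Some other lists moved with the same libraries. The median deviation of 13 clock-neuron peptide genes in replicate 2 was 1.13 in WT GFP-positive, 0.86 in KO GFP-positive and 0.71 in KO GFP-negative cells, and that of the 9 markers of mature neurons 0.15, 0.31 and 0.26. In WT GFP-negative replicate 2 they were 0.24 and 0.10. The 17 glial markers had medians of 0.16 in WT GFP-positive, 0.05 in KO GFP-positive, 0.16 in KO GFP-negative and 0.10 in WT GFP-negative replicate 2. Over all tested genes these were 0.03, 0.02, 0.02 and 0.07 in the same order. In the GFP-positive groups the glial median was higher in replicate 1, at 0.23 in the wild type and 0.40 in the knock-out. Which cells the replicate 2 shifts came from was not tested. The part of these shifts in the levels of the clock genes and Pdf was not tested. Beyond the lane, nothing in the labels says what title numbers 1 to 4 share. Without them, Clk remained called as lower in KO GFP-positive cells and vri did not.

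**Figure D4:**
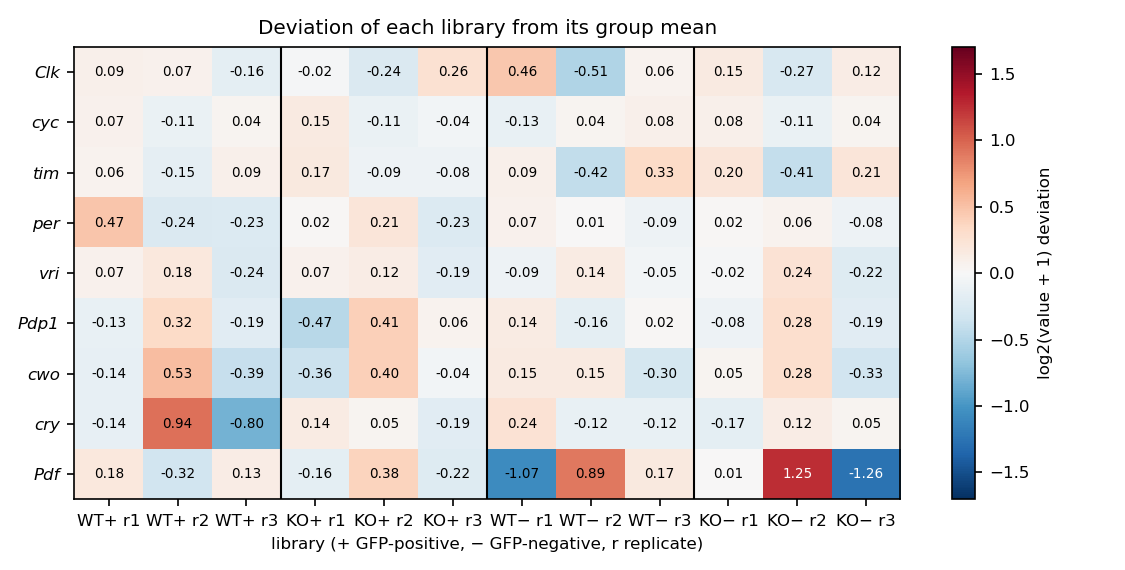
Deviation of each library from the mean of its group on the log2(value + 1) scale, with the value written in each cell (red above, blue below the mean). Rows are genes and columns are libraries, + for GFP-positive, − for GFP-negative and r for replicate. The r2 columns are above the mean for Pdp1 and cwo in 3 groups, and the largest deviations belong to Pdf in GFP-negative cells and to cry in WT GFP-positive cells.

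The genes whose profile over the 12 libraries was most like each clock gene were found by Pearson's r of log2(value + 1), among genes with a group mean of at least 5. These r describe 4 groups that differ strongly and carry no test. Nearest to Clk were Exn (0.962), Drl-2 (0.961) and out (0.959). For Drl-2 the means were 263 and 136 in WT and KO GFP-positive cells and 83.7 and 74.3 in WT and KO GFP-negative cells, and for out they were 20.4, 5.61, 2.99 and 2.23 in the same order.

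Nearest to cyc was CtsK1 (0.993), and nearest to tim were the gene with the identifier FBgn0000099 (0.991), CG42663 (0.988) and RhoBTB (0.988). The nearest to Pdp1 was CG42268 (0.972), followed by AstC, a peptide gene, and the transporter gene Oatp30B (both 0.968). Oatp30B (0.984) was also among the nearest to cwo, with Dhit (0.990) and sNPF-R (0.986), the receptor of short neuropeptide F. For vri they were rasp (0.923), aralar1 (0.922) and Shrm (0.918). The highest r was 0.926 for per, with Pfrx, 0.888 for cry, with Pvr, and 0.887 for Pdf, with Trhn, the neuronal tryptophan hydroxylase gene of serotonin synthesis.

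The lists of other pathway genes are counted beside the share of all genes called between the WT fractions, 25.7% as higher and 12.3% as lower, and no list was tested against other genes. These lists too were chosen with earlier results of the same libraries known, so nothing is read from their shares in any comparison. Of 13 kinases and phosphatases that set the pace of the clock by acting on PER and TIM, 4 rose and 0 fell between the WT fractions, a share near that of all genes, and edgeR and DESeq2 each called 2. The list had a median log2 difference of 0.18 against 0.09 over all genes. The clearest was CkIalpha, a casein kinase gene, at 501 ± 53.2 against 341 ± 25.8 (log2 0.55 ± 0.10, limma adjusted p = 0.000961), which was called under all 23 alternatives. The other 3 were PpV, a phosphatase subunit gene (107 ± 2.18 against 79.4 ± 12.04, adjusted p = 0.0132), wdb (adjusted p = 0.0248) and sgg, the GSK3 gene (adjusted p = 0.0432). The calls of wdb and sgg were lost under 9 and 16 alternatives and that of PpV under 2. Between the genotypes 0 of the 13 were called by limma, edgeR or DESeq2 in either fraction. At an unadjusted p under 0.05 there were 0 in GFP-positive and 1 in GFP-negative cells. The limma shares over all genes were 1.75% higher and 1.32% lower in GFP-positive cells, and 0.434% and 0.252% in GFP-negative cells.

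Of 11 genes for the turnover of clock proteins, 4 rose and 0 fell between the WT fractions, again near the 25.7% of all genes, and edgeR and DESeq2 each called 2. Those called by limma were Cul1 (245 ± 7.76 against 189 ± 17.4, limma adjusted p = 0.00823), morgue (adjusted p = 0.0106), Cul3 (adjusted p = 0.0208) and jet, the F-box gene that acts with CRY on TIM (adjusted p = 0.0381). The median of all 11 was 0.11. These calls were lost under 2, 3, 10 and 12 of the 23 alternatives, in that order, rescaled libraries among them for all 4, and Cul3 changed sign there. Of 3 genes for the translation of per 0 were called by limma between the WT fractions, with 0 at an unadjusted p under 0.05 and 0 by edgeR or DESeq2.

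Among 12 regulators of CLK and of the dimer's chromatin, 2 rose and 1 fell between the WT fractions (all genes, 25.7% and 12.3%), with a median of -0.15. Here edgeR called 4 of the 12 and DESeq2 7. Eip75B, a nuclear receptor gene that acts on Clk transcription, stood at 636 ± 19.75 against 339 ± 33.2 (log2 0.91 ± 0.11, limma adjusted p = 2.38e-05). kay, the fly Fos gene, stood at 164 ± 5.49 against 105 ± 6.61 (adjusted p = 0.0044), and was not called with rescaled libraries. nito was lower, at 321 ± 5.16 against 391 ± 28.9 (adjusted p = 0.0245), and that call was lost under 7 of 23 alternatives. Between the genotypes 0 of the 12 were called in either fraction by limma, edgeR or DESeq2, and 0 passed at an unadjusted p under 0.05. Of all genes, limma called 1.75% as higher and 1.32% as lower in GFP-positive cells, and 0.434% and 0.252% in GFP-negative cells. At such shares a list of 12 may well hold no call, so nothing about Clk is read from this count.

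Of 22 output genes of the clock, with the receptor of PDF, 7 rose and 2 fell between the WT fractions. This was close to the 25.7% and 12.3% of all genes, and the median was 0.26. Between the KO fractions 12 were called as higher in GFP-positive cells and 3 as lower, where 23.6% and 12.9% of all genes were. The median there was 0.70, and edgeR and DESeq2 each called 13. Hr51, a nuclear receptor gene of PDF neurons, fell from 32.7 ± 3.05 in WT GFP-negative to 1.497 ± 0.451 in WT GFP-positive cells (log2 -3.77 ± 0.19, limma adjusted p = 1.65e-08). qsm, which modulates light input, fell from 8.31 ± 2.30 to 2.75 ± 0.425 (-1.29 ± 0.27, adjusted p = 0.00225). These 2 had the direction of Pdf, whereas the 7 that rose had the opposite one. qsm was also among the 3 genes nearest to Pdf in profile (r = 0.886). Whether Hr51 or qsm came from the same cells as Pdf was not tested.

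Among the genes that rose, Galphas encodes the G protein subunit through which the PDF receptor raises cAMP. It stood at 171 ± 15.85 in WT GFP-positive against 121.5 ± 9.59 in WT GFP-negative cells (0.49 ± 0.10, limma adjusted p = 0.00286), and Ac78C, an adenylate cyclase gene, at 38.7 ± 6.01 against 20.3 ± 1.47 (0.89 ± 0.22, adjusted p = 0.00638). Galphas was not called with rescaled libraries. The receptor gene Pdfr stood at 6.73 ± 2.79 in WT GFP-positive and 4.59 ± 1.38 in WT GFP-negative cells and was not called (0.44 ± 0.28, adjusted p = 0.233). In the knock-out it stood at 5.88 ± 1.61 and 3.35 ± 0.693 (0.65 ± 0.28, adjusted p = 0.0891).

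In the knock-out, 3 of these 22 genes rose and 0 fell in GFP-positive cells, where 1.75% and 1.32% of all genes did. Hr51 rose from 1.497 ± 0.451 to 7.86 ± 2.08 (1.82 ± 0.19, limma adjusted p = 9.07e-05), and Fas2, a cell adhesion gene whose product changes with the daily remodelling of PDF axons, from 379 ± 28.5 to 597 ± 29.8 (0.66 ± 0.09, adjusted p = 0.00106). dimm, a bHLH gene of peptidergic cells, rose from 3.68 ± 1.13 to 9.20 ± 1.41 (1.14 ± 0.24, adjusted p = 0.0185), a call that was lost under 4 of 23 alternatives, each a fit without WT or KO GFP-positive replicate 1 or 3. In GFP-negative cells 0 of the 22 were called by limma, edgeR or DESeq2 and 0 passed at an unadjusted p under 0.05. Of all genes, limma called 0.434% there as higher and 0.252% as lower.

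Of 13 other peptide genes of clock neurons, 4 rose and 1 fell between the WT fractions (all genes, 25.7% and 12.3%), with a median of 0.89. Ms, the myosuppressin gene, stood at 250 ± 185 against 1.52 ± 0.274 (limma adjusted p = 8.83e-05), AstC at 228 ± 191 against 13.0 ± 2.13 (adjusted p = 0.000856), CNMa at 41.4 ± 40.0 against 1.52 ± 0.165 (adjusted p = 0.000482) and CCHa1 at 31.6 ± 15.95 against 2.97 ± 1.15 (adjusted p = 0.00125). The spread among the WT GFP-positive libraries was as large as the mean for some of them. AstA fell.

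In KO against WT GFP-positive cells 3 of these 13 peptide genes fell and 0 rose, where 1.32% and 1.75% of all genes did, and edgeR called 1 and DESeq2 3. Ms stood at 14.0 ± 22.1 in the knock-out (log2 -5.17 ± 0.87, limma adjusted p = 0.00411), CCHa1 at 3.93 ± 3.91 (-2.90 ± 0.56, adjusted p = 0.0123) and CNMa at 4.85 ± 2.93 (-2.52 ± 0.60, adjusted p = 0.0396). The calls of Ms and CCHa1 were lost with edgeR and without both rRNA-rich libraries, that of CCHa1 also without KO GFP-positive replicate 1 or 3, and that of CNMa under 14 of 23 alternatives. Bulk RNA does not show whether these peptides and the clock genes came from the same cells. Between the KO fractions AstC, Dh31, Dh44 and NPF were called as higher in GFP-positive cells, Dh31 at 361 ± 220 against 45.1 ± 29.6 (3.02 ± 0.63, adjusted p = 0.00254).

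Of 13 light input genes, 3 rose and 2 fell between the WT fractions, close to the 25.7% and 12.3% of all genes. gl, a zinc finger gene needed for photoreceptors and a group of dorsal clock neurons, stood at 77.8 ± 28.2 against 9.37 ± 1.4 (2.88 ± 0.30, limma adjusted p = 1.02e-05) and Rh7, a rhodopsin gene, at 22.9 ± 12.7 against 5.32 ± 2.14 (1.85 ± 0.33, adjusted p = 0.000846). timeout, the paralogue of tim, went opposite to it, at 2.61 ± 1.13 against 17.25 ± 2.68 (-2.37 ± 0.21, adjusted p = 2.5e-06).

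phr6-4, a photolyase gene related to cry, was higher in the knock-out in both fractions, at 8.52 ± 0.538 against 4.80 ± 1.00 in GFP-positive (0.73 ± 0.17, limma adjusted p = 0.0345) and 14.1 ± 1.94 against 7.47 ± 0.702 in GFP-negative cells (0.83 ± 0.17, adjusted p = 0.0453). These calls were lost under 9 and 14 of the 23 alternatives. No other light input gene was called between the genotypes, where 1.75% of all genes were called as higher in GFP-positive and 0.434% in GFP-negative cells.

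The relatives of the clock genes in the bHLH-PAS, bHLH-Orange and bZIP families included 13 tested genes, of which 4 rose and 4 fell between the WT fractions (all genes, 25.7% and 12.3%). sim, a bHLH-PAS gene of midline cells, stood at 1.43 ± 1.16 against 51.0 ± 2.39 (-4.52 ± 0.27, limma adjusted p = 6.16e-08) and trh, of tracheal cells, at 3.36 ± 0.674 against 12.1 ± 0.391 (-1.60 ± 0.16, adjusted p = 8.75e-06). The bHLH-Orange genes Hey, a Notch target, and dpn, a neuroblast gene, were also lower (adjusted p = 9.42e-09 and 2.85e-08), unlike cwo. The 4 that rose were tai, gce, tgo and Met. In KO GFP-positive cells Hey rose to 166 ± 26.6 from 93.0 ± 5.07 (0.82 ± 0.12, adjusted p = 0.00134) and sim to 4.27 ± 1.15 from 1.43 ± 1.16 (1.20 ± 0.27, adjusted p = 0.0297), the latter lost under 9 of 23 alternatives.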

How the data were processed

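The deposited table holds normalised read counts (a signal per gene and library, named as normalised counts) for 12610 genes in 12 libraries. SMARTer Ultra Low and Nextera kits, which keep no strand, were used on 4 ng of RNA per the labels. Per the submitters' processing notes, TopHat2 2.0.13, HTSeq 0.6.1, edgeR 3.10.5 and BDGP6 were used, in roles not given there. Each deposited signal was a whole multiple of 1 library-specific value (100% of values, tolerance 0.001), so whole reads were recovered. Column totals run from 807057 to 1264329, so the values are not scaled to a common total.

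Members and lists were chosen with earlier results of these data known. limma 3.58.1 with a trend (R 4.3.3) was fitted to log2(value + 1) of 9912 genes with a value of at least 1 in at least 3 libraries, with 4 group means, 5 contrasts and Benjamini-Hochberg adjustment. The fit was tested on simulated counts with the same dispersion for every gene and changes only in well-expressed genes. That test does not cover genes as low as Pdf or cry. Alternatives included edgeR 4.0.16 and DESeq2 1.42.0 on recovered reads, other scalings, lane, blocks and left-out libraries. The named genes are the 9 members, Rfx, up to 4 called genes per list and comparison with the smallest p, and the 3 genes nearest to each member in profile. Pdfr, ninaE, AstA, tai, gce, tgo and Met fall outside it, chosen after their values were seen. Of 186 listed symbols 15 were not found and are not used here. A BDGP6.54 annotation, on the same assembly, gave names and positions for 12389 identifiers. Lane is partly confounded with genotype. Sequences are not shown.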

Additional observations from a re-analysis of the deposited data

Results flagged for a closer look

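None of the clock genes nor Pdf differed between the fractions in its knock-out effect by a limma call, and none of them was tested for a library far from the others, because groups of 3 are too small. Among the other listed genes, 5 had a knock-out effect that differed between GFP-positive and GFP-negative cells in the test of the difference itself (effect in GFP-positive minus effect in GFP-negative cells, limma). The lists held 186 symbols, the clock genes and Pdf included, of which 15 were not found. Over all 9912 genes, 0.282% were called with a positive difference and 0.272% with a negative one. Of the 5, Rfx is the knocked-out gene itself.

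For dac, which is expressed in eye disc and brain neurons, the difference was 0.98 on the log2 scale (adjusted p = 0.00299): its GFP-positive means were 132 ± 13.0 in the wild type and 249 ± 11.3 in the knock-out, against 145 ± 7.31 and 139 ± 7.03 in GFP-negative cells (SD, n = 3). For Hr51 it was 1.72 (adjusted p = 0.012), with 1.497 ± 0.451 and 7.86 ± 2.08 against 32.7 ± 3.05 and 35.2 ± 3.08. For ey, the Pax6 gene, it was 0.75 (adjusted p = 0.0186), with 63.5 ± 0.860 and 121 ± 9.74 against 129 ± 4.63 and 144.5 ± 10.04. For Fas2 it was 0.67 (adjusted p = 0.046), with 379 ± 28.5 and 597 ± 29.8 against 314 ± 17.9 and 311 ± 19.9. For Rfx it was -0.85 (adjusted p = 0.0236), with the means given for the sorted groups. Over the 23 alternatives the call was lost under 1 for dac and Hr51 (in both cases without title numbers 1 to 4), 8 for ey, 14 for Rfx and 16 for Fas2, and the adjusted p reached 0.0611, 0.0632, 0.356, 0.239 and 0.297 in that order.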

How the results depend on the processing

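Of 1035 refits of a single clock gene or Pdf, 988 kept the call, 40 lost one and 7 gained one. The sign changed in 21 of the 988, each a difference that was not called. Between the WT fractions 8 of the 9 genes were called, 4 when the 2 libraries richest in rRNA reads were left out, and 5 to 8 when 1 library was left out (5 without WT GFP-positive replicate 2 and 5 without WT GFP-negative replicate 3). Calls over all genes also fell, from 3765 in the main fit to 3114 without the 2 rRNA-rich libraries. They were 2962 without WT GFP-positive replicate 2 and 3051 without WT GFP-negative replicate 3. Between the GFP-positive groups 2 were called, 3 with DESeq2 and 3 with the title-run block (per as higher besides), 1 without title numbers 1 to 4, 1 without the 2 rRNA-rich libraries, and 1 to 2 with 1 library left out (1 without WT GFP-positive replicate 2, KO GFP-positive replicate 1 or KO GFP-positive replicate 3; without WT GFP-positive replicate 1 the 2 were Clk as lower and per as higher). Between the GFP-negative groups 0 were called, but 1 (Clk) with DESeq2, with lane as a covariate, with the run of title numbers as a replicate block and, of the 0 to 1 with 1 library left out, without WT GFP-negative replicate 2.

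Over all genes, calls between the GFP-positive groups were 304, 505 with DESeq2 and 475 with the title-run block. They were 210 without title numbers 1 to 4 and 245 without the 2 rRNA-rich libraries. Between the GFP-negative groups they were 68, 152 with DESeq2 and 40 without title numbers 1 to 4. For the difference of the knock-out effects they were 55, 117 with DESeq2, 101 with the block, 32 without title numbers 1 to 4, and 34 to 51 with 1 library left out (34 without KO GFP-negative replicate 1); 50.9% of these 55 calls were positive, against 60.4% with edgeR, 60.7% with DESeq2 and 61.7% with rescaled libraries. Between the WT fractions 67.7% of calls were higher, against 55.6% with edgeR, 51.9% with DESeq2 and 57.1% with quantile normalisation, and between the KO fractions 64.8% against 52.9%, 53.7% and 55%, so calls of small differences between fractions depend on the scaling.

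Replicates were numbered as deposited, and the labels pair nothing. Libraries of 1 title run had residual correlations of 0.11 to 0.60 in the 12 pairs that a comparison joins and of -0.34 to 0.47 in the pairs that differ in both genotype and fraction, a hint from the data and not from the design, since the labels name no shared origin, so the block was kept as an alternative. Refits of the other named genes were added after seeing the data; Cul3 changed sign, to -0.01, with rescaled libraries. The cause of these changes was not tested. A planned search of promoters for E-boxes was not run, as no sequence was used here. Pdf in WT GFP-positive cells rests on 3 to 17 reads a library, so its fold is imprecise.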
